A study of Mus musculus with 4 samples.

Results

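The 31 genes described here carry long-chain fatty acids into the cell and break them down by beta-oxidation. They were taken by name, not by their values, from the 24452 genes listed for regulatory T cells (Tregs) of the mouse liver, and all 31 were found. The table lists symbols in capitals (CPT1A, SLC25A20, CPT2, HADHA), written below in mouse spelling. Tregs are the CD4 T cells, marked by the transcription factor Foxp3, that hold other immune cells in check. RNA sequencing compared Altre-KO Tregs, in which the long non-coding RNA Altre is knocked out, with Altre-WT Tregs, with 2 libraries each. Both came from livers of mice called young in the series. The sources used here do not give an age, a strain or the knockout design, or say whether libraries came from separate mice. P-values therefore measure the spread between these libraries, which may be technical. Altre itself was not analysed here, so the genotype labels were taken as given.

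Fatty acids enter cells partly through carriers such as CD36 and are bound in the cytosol by small binding proteins. Acyl-CoA synthetases join them to coenzyme A, and the carnitine shuttle then carries the acyl chain across the inner mitochondrial membrane. There each round of beta-oxidation removes acetyl-CoA in a cycle of oxidation, hydration, renewed oxidation and thiolysis, and electrons from the acyl-CoA dehydrogenases pass through the electron transfer flavoprotein to ubiquinone. Tregs have been reported to draw on fatty acid oxidation more than effector T cells do, and PPAR nuclear receptors with the coactivator PGC-1alpha are known regulators of these genes in tissues that burn fat.

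Levels are in CPM, reads scaled by the authors to the same total over listed genes in each library. Reads on listed genes, estimated from the smallest step of the deposited values, were 3266131 and 2361930 in Altre-KO and 1828774 and 2378957 in Altre-WT, and 1 read corresponded to 0.306 to 0.547 CPM. Altre-KO replicate 1 stood apart: listed genes took 32.8% of its estimated reads, and 18.8% to 21.5% elsewhere, and its Foxp3 level was 79.5 CPM, with 140.5 to 162 CPM elsewhere. Of the other Treg markers, Cd3e (53.9 CPM, with 68.5 to 90.8 CPM elsewhere) and Il2ra (164 CPM, with 190 to 213 CPM elsewhere) were also lowest in this library, and Cd4, Ctla4 and Ikzf2 were at no less than 329 CPM in all 4. The liver's parenchymal cells use fatty acid oxidation heavily, and 5 of 8 hepatocyte markers (Alb, Apoa2, Ttr, Fgb and Fabp1) were at 0 in all 4 libraries. The 8 summed to 44.7 and 32.6 CPM in Altre-KO and 26.8 and 43.3 CPM in Altre-WT, nearly all of it from the transferrin gene Trf. The 6 macrophage and monocyte markers summed to 262 and 144 CPM in Altre-KO and 169 and 265 CPM in Altre-WT, and so did not separate the genotypes. Of the 5 liver endothelium markers, Stab2 had 0.92 and 1.27 CPM in Altre-KO and 6.02 and 5.04 CPM in Altre-WT. Clec4g had 0 in both Altre-KO libraries and 1.09 and 0.42 CPM in Altre-WT. Both were thus lower in Altre-KO, at low levels, while Pecam1, Kdr and Cdh5 overlapped. The summed B cell, CD8 T and NK, stellate cell and erythroid markers overlapped too. In bulk libraries, fewer cells of a type and less RNA per cell cannot be told apart.

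The liver Treg libraries of both genotypes held transcripts of nearly the whole pathway, and no tested gene of it differed past the test. Macrophage transcripts were present too (Lyz2 at 66.1 to 165 CPM), and the part of other cells in these levels was not tested. Of the 31 genes, 27 reached the level needed for testing, at least 4.22 CPM (10 reads at the median depth) in 2 libraries, and none of the 27 passed an adjusted p of 0.05 (limma on log2(CPM + 1), adjusted over 10486 tested genes by Benjamini and Hochberg). Over all tested genes 4 passed, 0.0381%, all of them lower in Altre-KO. At an unadjusted p under 0.05 there were likewise 0 of the 27, against 3.66% of all tested genes, and limma-voom on estimated reads also called 0 of the 27. The authors' deposited table gave every one of the 31 an adjusted p of 1.

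The fold changes of the 27 lay close around 0. Log2 fold changes are Altre-KO minus Altre-WT and understate the change of low genes. Of the 27, 16 had a fold change above 0 and 11 below, and the median was 0.05, beside -0.01 over all tested genes. Their range ran from -0.57 for Etfa to 0.53 for Slc25a20. For 18 of the 27 the 95% interval lay within a 2-fold change in either direction, and for 8 of these within a 1.5-fold change. For the other 9 the interval reached past a 2-fold change, which these libraries can thus neither show nor exclude.

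**Figure D1:**
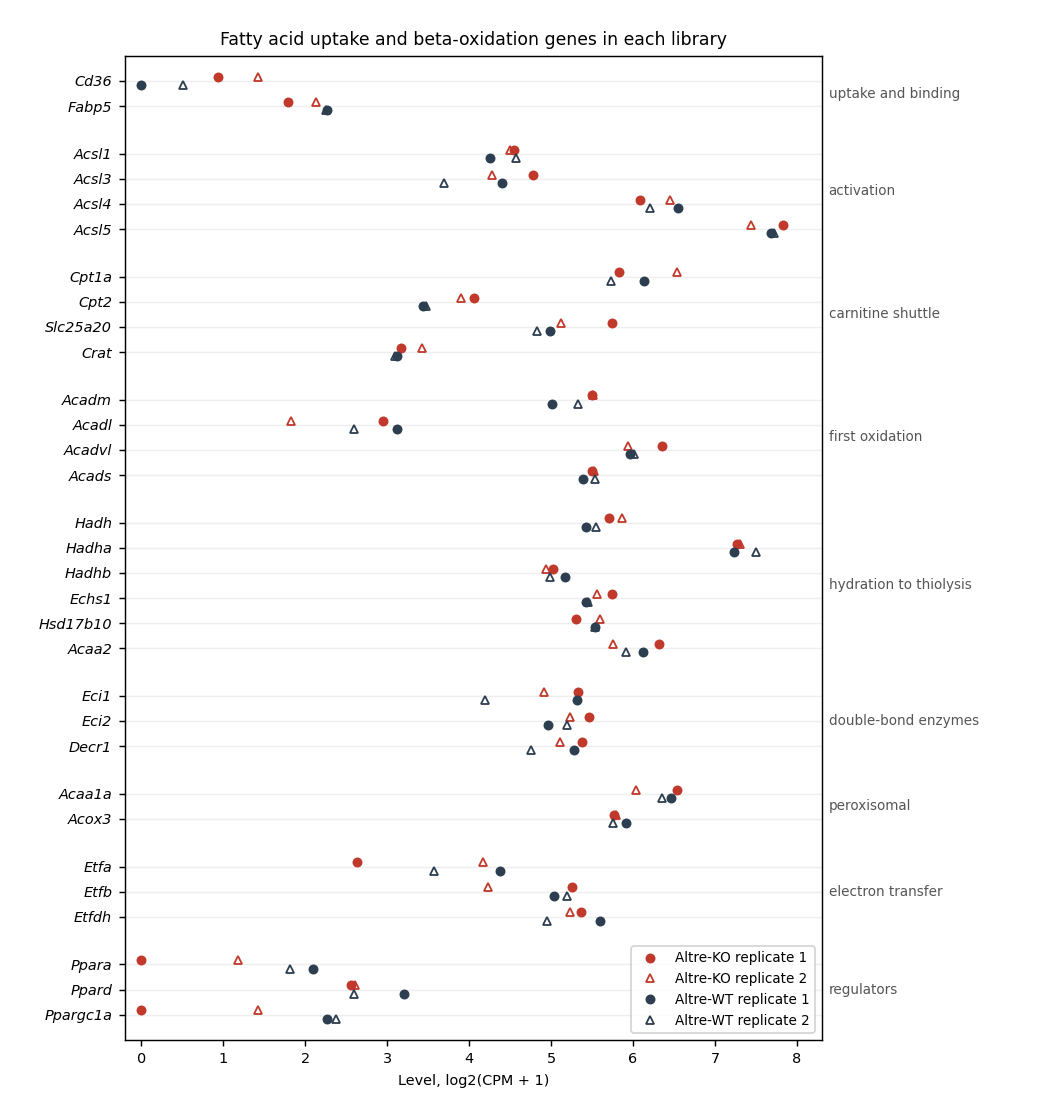
Level of each of the 31 genes in each library, as log2(CPM + 1) on the horizontal axis, grouped by role, with Altre-KO in red above Altre-WT in dark blue for each gene. Acsl5 and Hadha sit at the right in all 4 libraries, and Cd36, Fabp5, Ppara and Ppargc1a toward the left. Ppara and Ppargc1a lie at 0 in Altre-KO replicate 1 only.

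**Figure D2:**
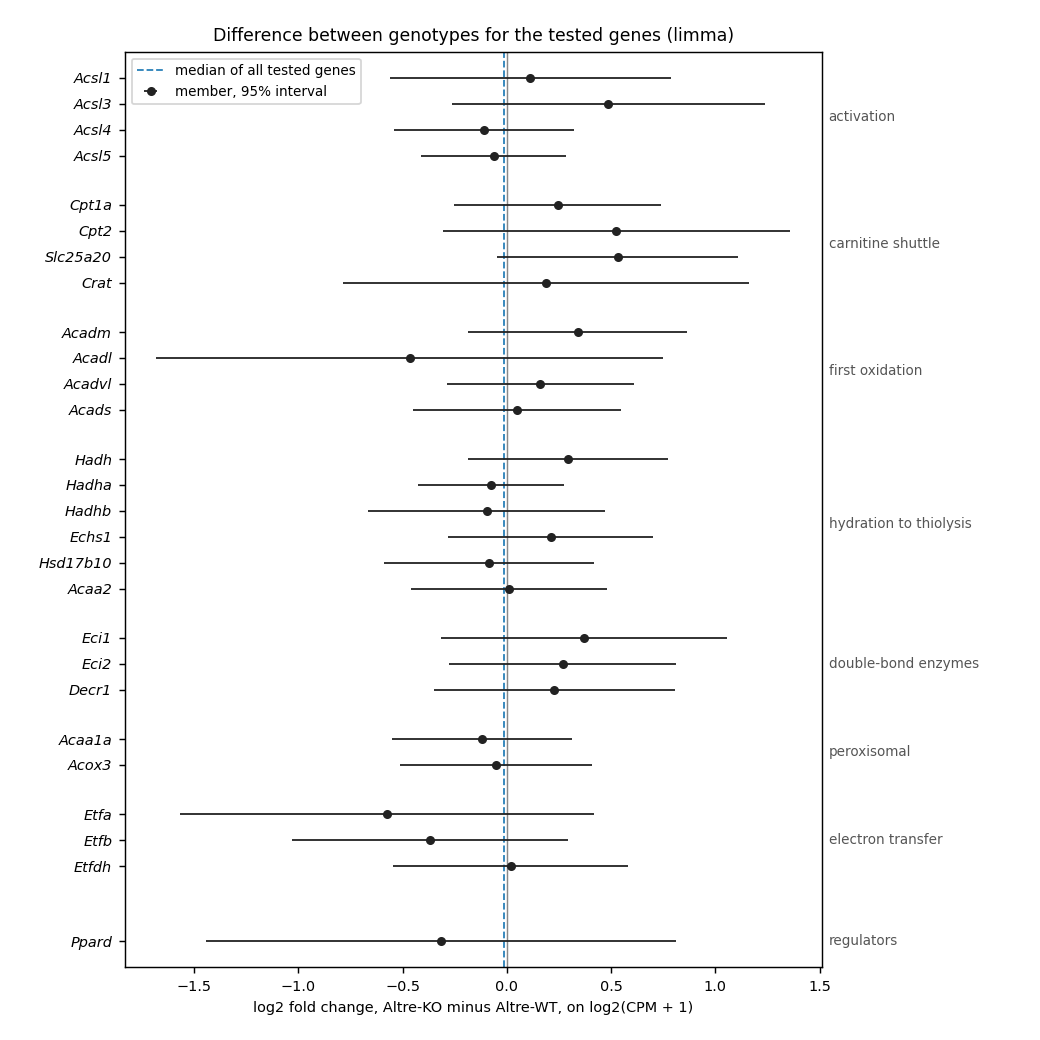
Log2 fold change (Altre-KO minus Altre-WT, on the log2(CPM + 1) scale) of the 27 tested genes with its 95% interval from limma, by role. Every interval crosses 0, and the dashed line marks the median of all tested genes at -0.01.

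Both uptake genes were low. Cd36, which encodes a fatty acid carrier of the cell surface, had 0.92 and 1.69 CPM in Altre-KO and 0 and 0.42 CPM in Altre-WT. These values rest on 7 estimated reads over both Altre-KO libraries and 1 over both Altre-WT libraries, a ratio of 5.23 with an exact 95% interval of 0.672 to 236 that covers counting error only. Cd36 is also a gene of macrophages, whose summed markers are given above, and their part in these few reads was not tested. Fabp5, a cytosolic fatty acid binding protein, had 2.45 and 3.39 CPM in Altre-KO and 3.83 and 3.78 CPM in Altre-WT, so that both Altre-KO libraries were lower. Each genotype had 16 estimated reads, a depth-scaled ratio of 0.748 (exact 95% interval 0.350 to 1.597, counting error only). The level of Fabp5 is uncertain, because transcripts of Gm14328 and Gm6166 are 97.3% and 98.3% identical to it over 408 and 409 bases. How reads that match several places were counted is not stated. Neither gene was tested, and with so few reads a difference in either transcript can be neither shown nor excluded. The uptake genes Slc27a1 and Slc27a4, outside the 31, had enough reads for testing. Slc27a1 gave -0.40 (SE 0.40) and Slc27a4 gave -0.07 (SE 0.32) on the log2 scale, both at a limma adjusted p of 0.999. Fatty acid uptake itself was not measured.

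Among the 4 Acsl synthetase genes, Acsl5 had the highest level. Acsl5 had 227 and 173 CPM in Altre-KO and 205 and 209 CPM in Altre-WT, and the Altre-WT values lay between those of Altre-KO. Per kilobase of exon its mean level over the 4 libraries was 41.8 CPM, against 14.8 CPM per kb for Acsl4, which prefers arachidonate-like polyunsaturated chains, 4.42 for Acsl3 and 2.02 for Acsl1. The ranges of Acsl5 and Acsl4 over libraries (35.5 to 46.6 and 12.4 to 17.1 CPM per kb) did not overlap, while Acsl3 (2.74 to 6.09 CPM per kb) stood above Acsl1 (1.72 to 2.17). With the length of the principal transcript in place of all exons, Acsl1 and Acsl3 changed places, at 5.43 and 4.87 CPM per kb, so their order depends on the length used. Acsbg1, a related acyl-CoA synthetase gene outside the 31, stood at 28.9 CPM per kb of exon, between Acsl5 and Acsl4.

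Between genotypes the log2 fold change of Acsl5 was -0.06 (SE 0.17), and that of Acsl4, at 67.1 to 92.4 CPM, was -0.11 (SE 0.21). Acsl1, known for its part in triglyceride synthesis and oxidation in liver and muscle, lay between 18.1 and 22.7 CPM, with a log2 fold change of 0.11. Acsl3, a synthetase of the endoplasmic reticulum and lipid droplets, had 26.6 and 18.4 CPM in Altre-KO and 20.1 and 11.95 CPM in Altre-WT. Its groups overlapped (log2 fold change 0.49, SE 0.36, limma adjusted p = 0.999). Acsl3 was the only one of the 31 genes with fractional reads, and it shares 221 bases at 98.2% identity with a transcript of Utp14b, so its value is uncertain.

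The carnitine shuttle was the role with the most genes higher in both Altre-KO libraries. All 4 of its genes had a log2 fold change above 0, with a median of 0.38, and 3 of the 4 had both Altre-KO libraries above both Altre-WT libraries, as did 14.7% of all tested genes, but none passed the test. Slc25a20, the carnitine-acylcarnitine carrier of the inner membrane, had 52.7 and 33.9 CPM in Altre-KO and 30.6 and 27.3 CPM in Altre-WT. Its log2 fold change was 0.53 (SE 0.28, 95% interval -0.05 to 1.11, limma adjusted p = 0.999), and the groups did not overlap, although Altre-KO replicate 2 stood close above Altre-WT replicate 1. Without Altre-KO replicate 1 the log2 fold change was 0.22, and without Altre-KO replicate 2 it was 0.84.

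Cpt2, which rebuilds acyl-CoA on the matrix side, had 15.6 and 14.0 CPM in Altre-KO and 9.84 and 10.1 CPM in Altre-WT. The values within each genotype lay close together, at 14.8 ± 1.17 CPM in Altre-KO and 9.97 ± 0.177 CPM in Altre-WT (SD, n = 2 each). These levels rest on 51 and 33 estimated reads in Altre-KO and 18 and 24 in Altre-WT, where 1 read was worth 0.420 to 0.547 CPM. The SD in Altre-WT was thus below 1 read and is no reliable measure of the spread. The log2 fold change was 0.52 (SE 0.40, limma adjusted p = 0.999) and ran from 0.45 to 0.60 when each library was left out in turn, the narrowest range among these 4 genes. Crat, the carnitine acetyltransferase that buffers acetyl-CoA, had 7.96 and 9.74 CPM in Altre-KO and 7.66 and 7.57 CPM in Altre-WT. Its log2 fold change was 0.19 (SE 0.47), and its groups were kept apart by less than 1 read (7.96 against 7.66 CPM).

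Cpt1a, the rate-limiting enzyme at the outer membrane, had 55.7 and 91.5 CPM in Altre-KO and 69.5 and 52.1 CPM in Altre-WT. The genotypes overlapped, with the highest and the third-highest value in Altre-KO. Its log2 fold change of 0.24 (SE 0.24) was -0.11 without Altre-KO replicate 2 and 0.60 without Altre-KO replicate 1. Unlike for Cpt2 and Slc25a20, the highest value of Cpt1a thus lay in Altre-KO replicate 2. Cpt1a and Slc25a20 stood at similar levels per kilobase of exon (8.79 and 7.46 CPM per kb, with overlapping ranges), and Cpt2 lay at 5.18 and Crat at 1.53 CPM per kb. With principal transcripts Slc25a20 came above Cpt1a, at 20.3 and 15.6 CPM per kb.

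**Figure D3:**
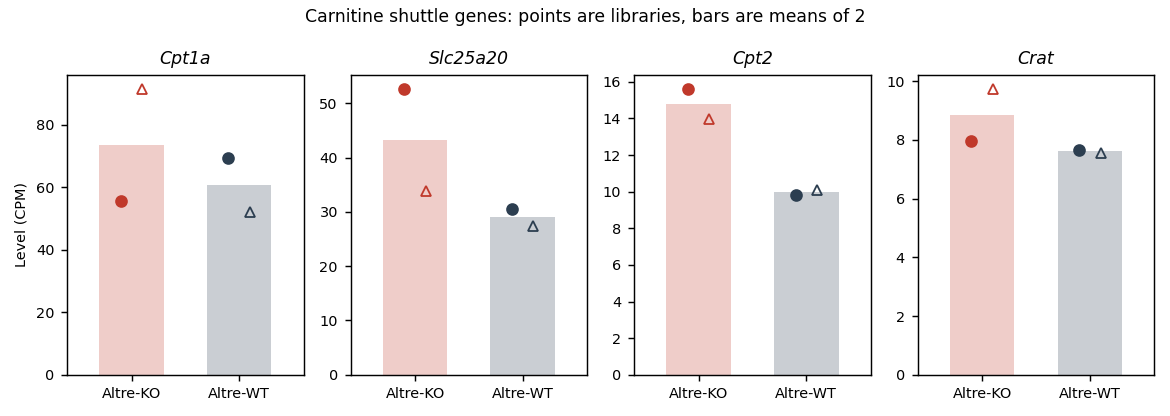
Level in CPM of the 4 carnitine shuttle genes, with Altre-KO left of Altre-WT, a point for each library (filled circle for replicate 1, open triangle for replicate 2) and bars for the mean of 2. Slc25a20, Cpt2 and, by less than 1 read, Crat have both Altre-KO points above both Altre-WT points, and Cpt1a does not.

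The start regions of the 3 transport genes are shown because Slc25a20 and Cpt2 had the largest positive fold changes of the 27 genes and Cpt1a is the control point of the shuttle. Each is the RefSeq window from 250 bases before to 50 bases after the transcript start (GRCm38.p6), read 5′ to 3′ on the gene's strand, at chr19:3323051-3323350 (+) for Cpt1a, chr9:108661886-108662185 (+) for Slc25a20 and chr4:107923540-107923839 (-) for Cpt2. Capitals mark matches on either strand to the CCAAT box, to GGGCGG, known as the GC box, and to the motif AGGTCA, the core of nuclear receptor elements including those of PPARs, with no overlap between them:
Cpt1a: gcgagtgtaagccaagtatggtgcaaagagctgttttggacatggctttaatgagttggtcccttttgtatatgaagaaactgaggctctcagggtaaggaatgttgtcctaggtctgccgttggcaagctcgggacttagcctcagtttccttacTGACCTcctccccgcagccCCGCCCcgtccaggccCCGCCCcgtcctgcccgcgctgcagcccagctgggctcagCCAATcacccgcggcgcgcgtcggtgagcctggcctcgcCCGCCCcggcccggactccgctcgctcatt
Slc25a20: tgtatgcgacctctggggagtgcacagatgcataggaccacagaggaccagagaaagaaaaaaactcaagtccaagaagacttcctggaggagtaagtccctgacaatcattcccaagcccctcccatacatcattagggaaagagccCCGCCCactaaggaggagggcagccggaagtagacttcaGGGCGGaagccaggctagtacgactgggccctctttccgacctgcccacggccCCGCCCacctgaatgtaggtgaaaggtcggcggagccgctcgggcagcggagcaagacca
Cpt2: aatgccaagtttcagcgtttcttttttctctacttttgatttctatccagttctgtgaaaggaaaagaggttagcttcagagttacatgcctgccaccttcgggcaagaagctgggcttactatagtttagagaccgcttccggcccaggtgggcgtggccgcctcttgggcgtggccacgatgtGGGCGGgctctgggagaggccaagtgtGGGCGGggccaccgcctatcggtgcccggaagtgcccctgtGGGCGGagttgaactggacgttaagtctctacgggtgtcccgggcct
Each of the 3 holds GGGCGG 3 times, and of these windows only that of Cpt1a holds CCAAT, and likewise the motif AGGTCA. Among the 28 windows found for 27 of the 31 genes, 22 held GGGCGG, 13 held CCAAT and 5 held AGGTCA (those of Acadm, Acadvl, Cd36, Cpt1a and Echs1). Of all 32851 windows, 35.7% held GGGCGG, 37.4% held CCAAT and 16.3% held AGGTCA. The windows of these genes were also richer in G and C, at a median of 60.5%, against 52.7% in all windows, and the part of this in the count of GGGCGG was not tested. A match is a run of letters and does not show that a factor binds there.

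The acyl-CoA dehydrogenases, which make the opening oxidation of each round and differ in the chain length they prefer, were led by Acadvl, the enzyme for very long chains. Acadvl had 80.5 and 60.5 CPM in Altre-KO and 61.2 and 63.5 CPM in Altre-WT, with a log2 fold change of 0.16 (SE 0.22). The groups overlapped, and only Altre-KO replicate 1 stood above the rest. Of its exons, 42.9% by length overlap Dvl2 on the opposite strand, and without stranded counting, which is not stated, reads of the 2 genes cannot be told apart.

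Acadm, the medium-chain enzyme, had 44.4 and 44.5 CPM in Altre-KO and 31.2 and 39.1 CPM in Altre-WT. Both Altre-KO libraries were thus above both Altre-WT libraries and nearly equal (log2 fold change 0.34, SE 0.25, limma adjusted p = 0.999, range 0.18 to 0.50 when each library was left out). Acads, the short-chain enzyme, lay between 41.0 and 45.4 CPM in the 4 libraries, a log2 fold change of 0.05 (95% interval -0.45 to 0.55). Acadl, the long-chain enzyme, was the lowest of the family at 2.54 to 7.66 CPM, and its log2 fold change of -0.47 had an interval of -1.68 to 0.75.

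Per kilobase of exon the order was Acadvl at 24.7, Acads at 19.4, Acadm at 10.2 and Acadl at 2.74 CPM per kb, with no overlap over libraries between neighbours, and principal transcripts gave the same order (30.6, 23.5, 19.4 and 2.87). Acadl rested on 6 to 22 estimated reads per library.

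The mitochondrial trifunctional protein, with 2 subunits, carries out hydration, the second oxidation and thiolysis of long chains. The genes of its subunits, Hadha and Hadhb, are neighbours on chromosome 5, read away from each other on opposite strands. Their RefSeq windows, at chr5:30154931-30155230 (-) for Hadha and chr5:30155003-30155302 (+) for Hadhb, share 228 bases, and the RefSeq transcript starts lie 273 bases apart. In the GENCODE annotation the genes start closer together, at 30155162 for Hadha and 30155248 for Hadhb. The window of Hadhb is shown because the pair has this start region in common and yet unequal transcript levels. It is read 5′ to 3′ on the plus strand, and capitals mark the bases it shares with the window of Hadha:
Hadhb: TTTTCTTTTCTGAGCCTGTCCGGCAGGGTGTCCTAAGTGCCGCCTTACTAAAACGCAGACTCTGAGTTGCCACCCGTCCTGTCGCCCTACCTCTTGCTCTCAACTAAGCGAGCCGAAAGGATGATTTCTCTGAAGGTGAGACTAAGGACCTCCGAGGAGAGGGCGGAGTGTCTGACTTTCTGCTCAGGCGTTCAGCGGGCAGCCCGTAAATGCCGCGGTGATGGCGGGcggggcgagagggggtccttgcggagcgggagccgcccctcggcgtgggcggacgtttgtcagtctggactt
Hadha had 153 and 158 CPM in Altre-KO and 149 and 179 CPM in Altre-WT, and Hadhb had 31.5 and 29.6 CPM in Altre-KO and 35.0 and 30.7 CPM in Altre-WT. Neither passed the test, with log2 fold changes of -0.08 (SE 0.17) for Hadha and -0.10 (SE 0.27) for Hadhb.

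Hadha was the more abundant subunit transcript in every library. The ratio of their levels per kilobase of exon was 3.67 and 4.01 in Altre-KO and 3.22 and 4.42 in Altre-WT, and with principal transcripts it was 2.47 and 2.71 in Altre-KO and 2.17 and 2.98 in Altre-WT. The Altre-KO ratios lay between those of Altre-WT. The level of Hadhb is uncertain, because transcripts of Gm13910 and Gm9108 are 99.8% and 97.6% identical to it over 1428 and 1426 bases, and the sources used here do not say how reads that match several places were counted.

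The other enzymes of these steps gave no call either. Hadh, the short-chain 3-hydroxyacyl-CoA dehydrogenase, had 51.1 and 57.2 CPM in Altre-KO and 42.1 and 45.8 CPM in Altre-WT, without overlap (log2 fold change 0.29, SE 0.23, limma adjusted p = 0.999). Echs1, the short-chain enoyl-CoA hydratase, had 52.7 and 46.2 CPM in Altre-KO and 42.1 and 42.9 CPM in Altre-WT, again without overlap (log2 fold change 0.21). Both kept their sign without each library in turn, as they must where groups do not overlap.

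Acaa2, the mitochondrial thiolase, had 78.4 and 52.9 CPM in Altre-KO and 68.9 and 59.3 CPM in Altre-WT, so that Altre-KO held both the highest and the lowest value. Its log2 fold change was 0.01 (95% interval -0.46 to 0.48). Hsd17b10, a dehydrogenase of branched and short acyl chains that is also a subunit of mitochondrial RNase P, lay between 38.6 and 47.4 CPM, with a log2 fold change of -0.08. Acaa2, at 42.8 CPM per kb of exon, was the most abundant transcript of the 31 per length, followed by Acsl5 at 41.8 and Hsd17b10 at 34.1, and the ranges of each neighbouring pair overlapped. With principal transcripts Acsl5 came to the top at 47.9, followed by Acaa1a at 46.1, Hsd17b10 at 45.9 and Acaa2 at 42.8 CPM per kb.

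The enzymes that handle double bonds of unsaturated chains all had a fold change above 0, with a median of 0.27, and none passed. Eci2, an enoyl-CoA isomerase, had 43.2 and 36.4 CPM in Altre-KO and 30.1 and 35.7 CPM in Altre-WT, a gap between the genotypes of under 1 CPM (log2 fold change 0.27, SE 0.26). Eci1, the main mitochondrial isomerase, had 39.2 and 29.2 CPM in Altre-KO and 38.8 and 17.2 CPM in Altre-WT. Its groups overlapped, and the log2 fold change of 0.37 (SE 0.33) turned to -0.19 without Altre-WT replicate 2. Decr1, the 2,4-dienoyl-CoA reductase, lay between 26.1 and 40.7 CPM, also lowest in Altre-WT replicate 2 (log2 fold change 0.23).

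Neither peroxisomal gene passed the test. Acaa1a, the peroxisomal thiolase, had 92.2 and 64.8 CPM in Altre-KO and 87.5 and 80.7 CPM in Altre-WT, and Altre-KO again held the highest and the lowest value (log2 fold change -0.12, SE 0.21). Its close copy Acaa1b was listed at 0 in all 4 libraries. Acox3, an oxidase of branched chains, lay between 53.0 and 59.1 CPM, with a log2 fold change of -0.05 (95% interval -0.51 to 0.41).

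None of the 3 electron transfer genes passed the test, and Etfa and Etfb varied widely between libraries of the same genotype. Etfa, the alpha subunit of the electron transfer flavoprotein, had 5.21 and 16.9 CPM in Altre-KO and 19.7 and 10.9 CPM in Altre-WT. Etfb, the beta subunit, had 37.4 and 17.8 CPM in Altre-KO and 31.7 and 35.7 CPM in Altre-WT. The low library was replicate 1 for Etfa and replicate 2 for Etfb, so the subunits were not low together.

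In Altre-KO replicate 1 the ratio of Etfa to Etfb per kilobase of exon was 0.0884 (exact 95% interval 0.0499 to 0.147, counting error only), from 17 and 122 estimated reads, and in Altre-KO replicate 2 it was 0.604 (0.382 to 0.954), from 40 and 42. In Altre-WT it was 0.394 (0.252 to 0.607) in replicate 1 and 0.194 (0.120 to 0.304) in replicate 2. The intervals of the 2 Altre-KO libraries did not overlap, and the Altre-WT values lay between them, so this ratio differed within Altre-KO by more than counting error and did not separate the genotypes.

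Log2 fold changes were -0.57 (SE 0.48) for Etfa and -0.37 (SE 0.32) for Etfb, both with a limma adjusted p of 0.999. Without Altre-KO replicate 1 that of Etfa was 0.19, and without Altre-KO replicate 2 that of Etfb was 0.15, so each rested on 1 library. Etfb is uncertain in another way, as 53.0% of its exons overlap the gene model Gm45233 on the same strand. Etfdh, which passes the electrons on to ubiquinone, lay between 29.9 and 47.6 CPM, with a log2 fold change of 0.02 (95% interval -0.54 to 0.58).

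**Figure D4:**
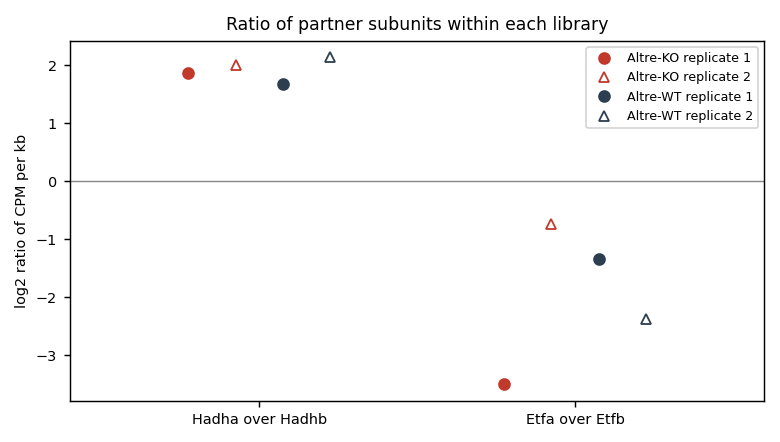
Log2 ratio of the levels per kilobase of exon of Hadha to Hadhb and of Etfa to Etfb within each library, Altre-KO in red left of Altre-WT in dark blue. The 4 libraries lie together for Hadha to Hadhb, from 1.69 to 2.14, and spread from -3.50 to -0.73 for Etfa to Etfb.

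The 3 regulators, with Cd36 and Fabp5, had the lowest levels per kilobase of exon, at 0.943 CPM per kb or less on average. With principal transcripts Fabp5 stood at 3.41 CPM per kb, above Acadl at 2.87 and Crat at 1.95. Ppard, the PPAR subtype most widely found across tissues, had 4.90 and 5.08 CPM in Altre-KO and 8.20 and 5.04 CPM in Altre-WT, with a log2 fold change of -0.32 (SE 0.55, limma adjusted p = 0.999). Its groups overlapped, and only Altre-WT replicate 1 stood above 5.08 CPM. Ppara, the PPAR that governs fatty acid oxidation in liver, was listed at 0 in Altre-KO replicate 1 and had 1.27 CPM in Altre-KO replicate 2, against 3.28 and 2.52 CPM in Altre-WT. Ppargc1a, which encodes the coactivator PGC-1alpha, was listed at 0 in Altre-KO replicate 1 and had 1.69 CPM in replicate 2, against 3.83 and 4.20 CPM in Altre-WT.

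Both genes thus lay lower in both Altre-KO libraries, on very few reads and below the level needed for testing. Over both libraries of a genotype Ppara had 3 estimated reads in Altre-KO and 12 in Altre-WT, a depth-scaled ratio of 0.187 (exact 95% interval 0.0338 to 0.693). Ppargc1a had 4 in Altre-KO and 17 in Altre-WT, a ratio of 0.176 (0.0431 to 0.539). These intervals cover counting error of the pooled reads only and leave out the spread between libraries. Altre-KO replicate 1, where both genes were at 0, had the most estimated reads on listed genes but the fewest genes above 0. It had 14970, against 15818 in Altre-KO replicate 2 and 16153 and 16668 in Altre-WT. Over 19412 genes without the filter the median log2 fold change was -0.08, against -0.01 with it. The part of this in the 2 ratios was not tested. With no low-value filter the limma unadjusted p was 0.0578 for Ppara and 0.0322 for Ppargc1a, and the adjusted p was 0.925 for both, so neither passed.

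Of the 27 tested genes, 7 had both Altre-KO libraries above both Altre-WT libraries (Slc25a20, Cpt2, Crat, Acadm, Hadh, Echs1 and Eci2) and none had both below. Of the 4 genes too low to test, Cd36 had both Altre-KO libraries above, and Fabp5, Ppara and Ppargc1a had both below, where few reads set the order. No share was taken over genes too low to test, so the order of these 4 is not read as a result. Over all tested genes the libraries kept apart for 30.8%, with Altre-KO above for 14.7% and below for 16.1%, so the 7 of 27 (25.9%) were near the background share when both directions are counted, and above it for Altre-KO above. By role all 7 were carnitine shuttle genes or mitochondrial enzymes, but so were most of the 27 tested genes (4 and 13). Their sign held without each library in turn, as it must where groups do not overlap.

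Altre-KO replicate 1 was the library in which these genes most often stood highest. It held the highest value for 12 of the 27 genes (44.4%), against 30.7% of all tested genes, while Altre-KO replicate 2 held 5, Altre-WT replicate 1 held 7 and Altre-WT replicate 2 held 3. The median deviation of the 27 from each gene's mean over libraries was 0.16 and -0.01 in Altre-KO replicates 1 and 2, and 0.08 and -0.09 in Altre-WT replicates 1 and 2, on the log2(CPM + 1) scale. The larger share of reads on listed genes in Altre-KO replicate 1, given above, moved with this, and its part in the result was not tested. The carnitine shuttle was the only role whose median deviation was above 0 in both Altre-KO libraries (0.15 and 0.21) and below 0 in both Altre-WT libraries (-0.14 and -0.29).

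**Figure D5:**
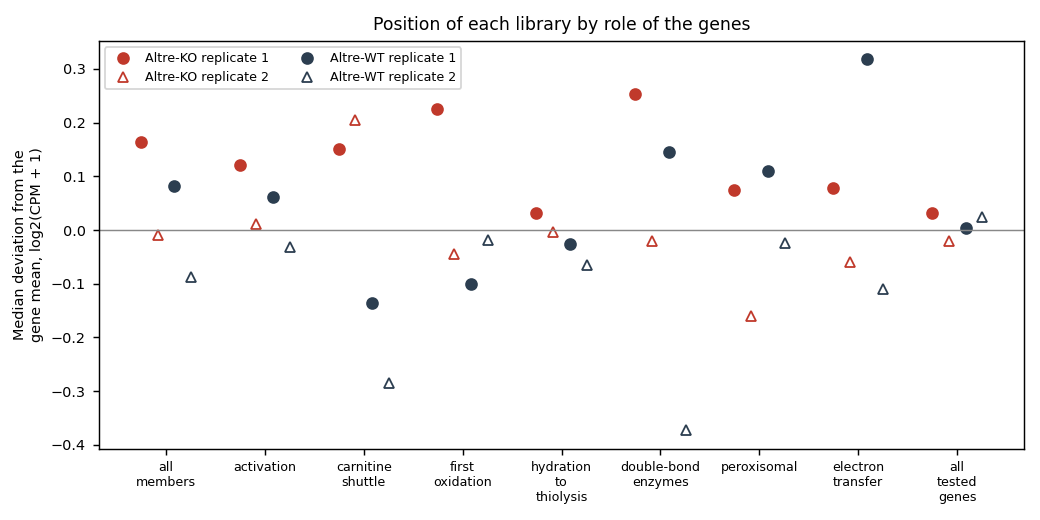
Median deviation from each gene's mean over the 4 libraries, on the log2(CPM + 1) scale, for the 27 tested genes, for each role with more than 1 tested gene and for all tested genes, with Altre-KO in red left of Altre-WT in dark blue. Altre-KO replicate 1 (filled red circles) lies above 0 in every role, and both Altre-KO points lie above both Altre-WT points for the carnitine shuttle and, by a small gap, for the hydration to thiolysis enzymes.

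Other genes of fatty acid handling gave no call either. Of 66 further genes of uptake, carnitine and malonyl-CoA metabolism, mitochondrial and peroxisomal oxidation, lipolysis and regulation, 48 were tested, and 0 passed in either direction. Their median fold change was 0.02 on the log2 scale, with 26 genes above 0 and 22 below. At an unadjusted p under 0.05 there were 2 higher and 2 lower. Acat1, the mitochondrial acetoacetyl-CoA thiolase, had 92.5 and 72.4 CPM in Altre-KO and 49.2 and 59.7 CPM in Altre-WT (log2 fold change 0.59, SE 0.22, limma adjusted p = 0.999).

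Ucp2, a mitochondrial carrier and a target of PPARs, had 167 and 236 CPM in Altre-KO and 271 and 247 CPM in Altre-WT (log2 fold change -0.38, SE 0.17, and a limma adjusted p of 0.999). The genotypes did not overlap for Acat1 or Ucp2, which were among 15 such genes of the 48, beside 30.8% of all tested genes. Neither difference held up when adjusted over all tested genes. The muscle form of the outer-membrane enzyme, Cpt1b, was at 0 in all 4 libraries, and the brain form, Cpt1c, at 1.27 CPM or less, which leaves Cpt1a as the form found at more than a few reads.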

How the data were processed

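RNA of liver Tregs was extracted with a micro-scale kit and made into libraries with a SMARTER mRNA kit, per the labels' protocols. STAR, cutadapt and DESeq2 were used with build mm10, per the submitters' processing notes, while these sources give neither their roles and versions nor the counter, annotation or strandedness. The authors deposited 1 table of 24452 genes. It holds RPM values per library with 0.0001 added, as read from the values, and CPM, per the file headers. The authors' mean signal per genotype, their log2 fold change and their p-value and adjusted p-value are in the same deposited table, and only their adjusted p is quoted.

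Genes were matched by symbol. What 1 read is worth was estimated from the RPM steps: 92.9% to 93.8% of values above 0 came out whole within 0.02 of a read, too few for a count test, although 30 of the 31 genes had whole reads in every library. The main test was limma 3.58.1 (R 4.3.3, mean-variance trend) on log2(CPM + 1), 2-sided, with group as the only term. Its SEs draw on 20.8 prior degrees of freedom. It was tested on simulated data. Libraries of a genotype differed beyond sampling noise (chi-square per degree of freedom, 9.55 in Altre-KO and 3.36 in Altre-WT), so no library was counted as a copy. Alternatives covered scaling, filter, pseudocount, limma-voom, the replicate number as a block and leaving out each library. Lengths and positions are from GENCODE M21 (GRCm38), with all exons of a gene merged, promoter windows from RefSeq (GRCm38.p6), and near-identical transcripts (at least 95% over 200 bases) from blastn 2.17.0. Near-identical transcripts were found for 9 of the 31 genes and overlapping exons of other genes for 12. The principal-transcript length was added as an alternative after the data were seen.

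The genes and lists were chosen with earlier results of these data known. Values per library are given for the 8 tested genes with the smallest p, the highest per length in each role, 7 fixed key genes and those without overlap between genotypes. Figures were drawn with matplotlib 3.10.9.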

Additional observations from a re-analysis of the deposited data

How the results depend on the processing

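None of the 27 tested genes passed in any of the 12 alternatives, where the lowest adjusted p of a member was 0.507 without a library and 0.925 otherwise. Their median log2 fold change, 0.05, ran from 0.019 with no low-value filter to 0.078 with median-of-ratios scaling, and from -0.031 to 0.13 when each library was left out. The replicate number as a block left it at 0.05, with 0 members past the threshold and 6 genes in all. The labels do not say whether equal numbers pair the libraries. Deviations between replicates did not correlate across genes between the genotypes (Pearson's r -0.01), but counting error can hide a pairing, so this does not exclude one. Over all tested genes 4 passed, 2 with a pseudocount of 0.1, and 6 to 16 when each library was left out: 14 without Altre-KO replicate 2, 16 without Altre-WT replicate 2. No other alternative turned the sign of a member, but leaving out a library did so for 17, whose log2 fold changes then ran as follows: Acaa1a (-0.37 to 0.13), Acaa2 (-0.27 to 0.29), Acadl (-1.03 to 0.10), Acads (-0.0238 to 0.12), Acadvl (-0.0417 to 0.36), Acox3 (-0.13 to 0.026), Acsl1 (-0.0453 to 0.27), Acsl4 (-0.29 to 0.0702). The remaining ranges were Acsl5 (-0.26 to 0.13), Cpt1a (-0.11 to 0.60), Decr1 (-0.0308 to 0.49), Eci1 (-0.19 to 0.93), Etfa (-1.34 to 0.19), Etfb (-0.88 to 0.15), Etfdh (-0.31 to 0.35), Hadha (-0.21 to 0.0565), Hsd17b10 (-0.23 to 0.0616). The cause was not tested. Depth limits the low genes most, since tested members rested on 6 to 741 estimated reads per library.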
